A study of Mus musculus with 5 samples.

Results

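pLN_2 is the smaller of 2 lymph node groups among 8 clusters of Vγ6 γδ T cells defined by the submitters. Its members were read from the column of that name in their deposited table of mean normalised expression, in which every column sums to 10000 over 10721 genes. A mean above 0 was given for 10270 of these genes in pLN_2. Shares of cells in the authors' deposited table, given to 3 decimals, could all be written as whole cells out of 301, which is taken here as the size of the cluster.

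The study sorted γδ T cells by flow cytometry for the T cell receptor chain Vγ4 or Vγ6 and sequenced 5 droplet libraries (Chromium 3′ v2), in which unique molecular identifiers (UMIs) count transcripts. The libraries used here were Vγ6 cells of peripheral lymph node (pLN), ear skin and thymus from C57BL/6 mice aged 8 weeks, and a Vγ6 pool of mice aged 8 to 10 weeks carrying TcrdCreER (lymph node), ACT-FLPe (thymus) or TcrdH2BeGFP (ear skin). Lymph nodes were superficial cervical, axillary, brachial and inguinal and were pressed through nylon. Skin was digested with collagenase and thymus was depleted of CD4 and CD8 cells with complement, so tissue and preparation cannot be told apart. Each group was 1 library and each cluster 1 authors' mean, so no difference below has a replicate check, a standard error or a test.

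Vγ6 cells leave the fetal thymus already committed to interleukin-17 (IL-17) production, with the transcription factor c-Maf (Maf) among their regulators, and persist by self-renewal. Dividing cells switch on replication genes through E2F factors at the entry to S phase, and mitotic genes later, often through CCAAT boxes and a short element called the cell cycle genes homology region (CHR). MHC class II molecules present peptides to CD4 T cells. B cells, dendritic cells and macrophages make them in quantity together with their chaperone, the invariant chain (Cd74), and mouse T cells make little.

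The 2 genes given as markers of the cluster were high in it. Cd74 (ENSMUSG00000024610, chromosome 18, 60803848 to 60812652, GENCODE M21 on mm10) averaged 24.9 per 10000 in pLN_2, against 3.88 in pLN_1, 1.97 in Skin and 0.202 to 0.639 in the 5 thymus clusters. H2-Aa, the MHC class II α chain (ENSMUSG00000036594, chromosome 17, 34282744 to 34287823), averaged 3.77 per 10000 in pLN_2, against 0.367 in pLN_1, 0.0497 in Skin and 0.0505 to 0.126 in the thymus clusters. The column also held genes of dividing cells, and the markers of antigen-presenting cells were uneven across its cells, as described below. Of 10 γδ T17 marker genes measured, 0 were higher in pLN_2 than in pLN_1, 2 were lower (Ccr6 and Il23r) and 8 neither (median log2 difference -0.67). Among the 8, Cd163l1 was at 6.73 and Blk at 2.92 per 10000 in pLN_2, against 10.7 and 4.43 in pLN_1.

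A gene was counted as higher or lower at a log2 difference of at least 1, with 0.1 per 10000 added to both means, and at least 0.5 per 10000 in the higher column. By this rule of size 219 of 3138 genes (6.98%) were higher in pLN_2 than in pLN_1 and 113 (3.6%) were lower. The median log2 difference over all 3138 was -0.05. A gene could be measured through 1 column alone, so counts of higher or lower list members below are descriptions and not tests. Just inside the upper limit lay Ripk3, at 0.856 per 10000 in pLN_2 and 0.377 in pLN_1, and just outside it Hnrnpa3, at 16.2 in pLN_2 and 8.08 in pLN_1.

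**Figure D1:**
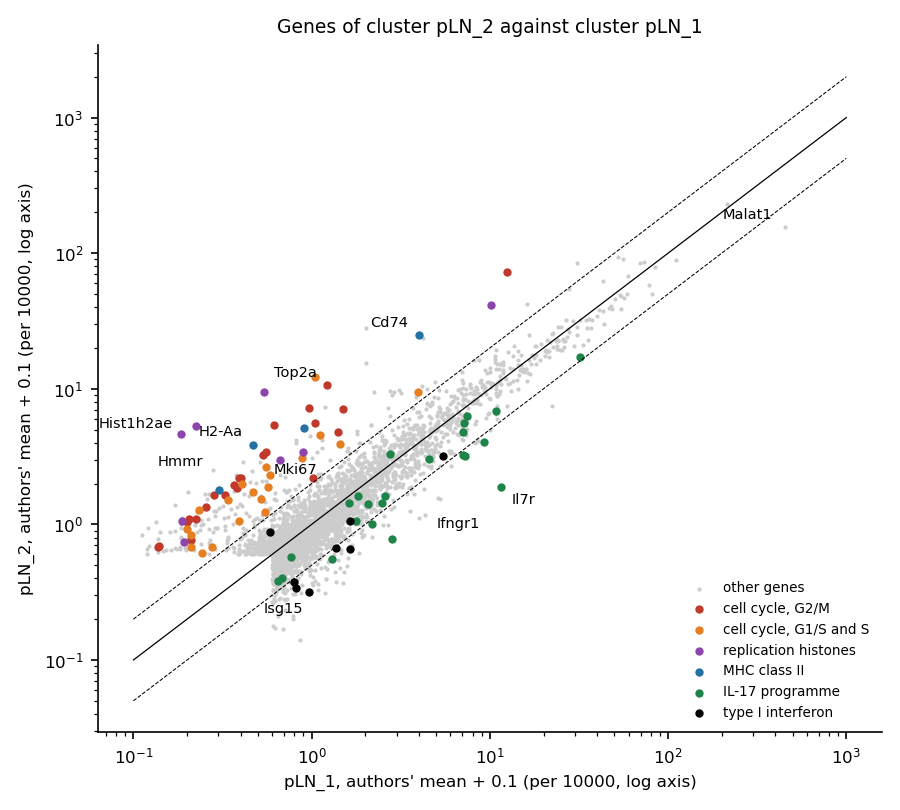
Authors' mean of each gene in pLN_2 (vertical axis) and pLN_1 (horizontal axis), per 10000 with 0.1 added, on log axes; each point is 1 of the 3138 genes with at least 0.5 per 10000 in either column, the solid line marks equality and the dashed lines 2-fold. Cell cycle, histone and MHC class II genes lie above the upper line, and Il7r, Ifngr1 and Malat1 below the lower one.

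Every measured gene of 3 lists of the dividing cell was higher. Some were measured only through pLN_2, among them Hist1h2ae, Tk1 and Ccnb2 (0.0849, 0.132 and 0.456 per 10000 in pLN_1). Of 23 G2/M genes measured, 23 were higher in pLN_2 than in pLN_1, with a median log2 difference of 2.41. Of 20 G1/S and S phase genes measured, 20 were higher (median 1.85), as were 8 of 8 replication histone genes (median 2.33). The summed level of the G2/M list was 138 per 10000 in pLN_2, against 22.6 in pLN_1, and that of the G1/S and S list 53.0 in pLN_2, against 12.4 in pLN_1. Of the 219 higher genes, 51 belonged to these 3 lists.

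The replication histones held the largest single differences. Hist1h2ae, a core histone H2A gene, averaged 4.54 per 10000 in pLN_2 and 0.0849 in pLN_1, a log2 difference of 4.65. Hist1h1b, a linker histone, averaged 9.30 in pLN_2 and 0.438 in pLN_1 (4.13). Hist1h2ap averaged 5.19 in pLN_2 and 0.125 in pLN_1 (4.56), but 5.69 in Thy_5. Histone genes are near-identical copies, so reads may be shared between members, and most of their messages lack a poly(A) tail, on which the capture depends.

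Among the S phase genes, Rrm2, the regulated subunit of ribonucleotide reductase, averaged 12.0 per 10000 in pLN_2, against 0.949 in pLN_1 and 6.70 in Thy_5. Outside the list, 2810417H13Rik, an older symbol of the replication clamp partner Pclaf, averaged 27.9 in pLN_2, against 1.92 in pLN_1 and 14.8 in Thy_5. Tk1 (thymidine kinase), Ccne2 (cyclin E2) and Hells (a chromatin remodeller of replication) had log2 differences of 2.45, 2.27 and 2.26 against pLN_1. Over the G1/S and S list Thy_5 stood close to pLN_2: the summed level was 53.0 per 10000 in pLN_2 and 45.8 in Thy_5, and 1 of 21 measured members was higher in pLN_2 than in Thy_5.

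The G2/M genes set pLN_2 apart from Thy_5 as well. Hmmr and Prc1 are not in that list. Hmmr, a spindle-associated hyaluronan receptor, averaged 2.43 per 10000 in pLN_2, against 0.180 in pLN_1 and 0.298 in Thy_5, the next highest column. Mki67, which coats mitotic chromosomes, averaged 3.16 in pLN_2, against 0.433 in pLN_1, 0.449 in Thy_5 and 0.0847 to 0.290 in the other 5 columns. Tpx2 and Prc1, both spindle proteins, averaged 2.09 and 2.39 in pLN_2, against 0.292 and 0.361 in pLN_1. Cdk1, the kinase that starts mitosis, averaged 2.08 in pLN_2, against 0.300 in pLN_1 and 0.353 in Thy_5. Top2a, the topoisomerase that untangles chromosomes, averaged 10.6 in pLN_2, against 1.12 in pLN_1 and 3.55 in Thy_5. Of the 23 G2/M genes, 20 were higher in pLN_2 than in Thy_5, and their summed level in Thy_5 was 45.4 per 10000.

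The promoters of 3 of these genes are shown for their CCAAT boxes, joined in Mki67 and Cdk1 by the CHR element, beside that of the marker H2-Aa. Each is the 250 bases before the gene start in RefSeq (GRCm38.p6), read in the direction of the gene, and capitals mark CCAAT or TTTGAA on either strand (ATTGG and TTCAAA on the other).
Mki67, chr7:135716380-135716629, minus strand: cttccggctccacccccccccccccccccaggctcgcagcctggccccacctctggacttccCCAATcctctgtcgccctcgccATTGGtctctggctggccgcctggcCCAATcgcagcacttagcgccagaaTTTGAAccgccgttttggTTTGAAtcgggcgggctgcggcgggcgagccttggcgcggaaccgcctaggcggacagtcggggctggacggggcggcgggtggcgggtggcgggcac
Cdk1, chr10:69352913-69353162, minus strand: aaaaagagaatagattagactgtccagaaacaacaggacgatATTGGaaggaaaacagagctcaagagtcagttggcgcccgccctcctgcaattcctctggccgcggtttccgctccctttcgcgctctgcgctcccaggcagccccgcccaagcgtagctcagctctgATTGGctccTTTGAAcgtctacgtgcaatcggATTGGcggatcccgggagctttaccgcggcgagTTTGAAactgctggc
Hmmr, chr11:40733438-40733687, minus strand: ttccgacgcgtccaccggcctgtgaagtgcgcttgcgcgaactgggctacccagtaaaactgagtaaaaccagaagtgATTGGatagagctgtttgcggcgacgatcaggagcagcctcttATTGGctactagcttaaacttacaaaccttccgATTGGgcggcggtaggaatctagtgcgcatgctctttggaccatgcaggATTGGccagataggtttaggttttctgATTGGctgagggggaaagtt
H2-Aa, chr17:34287824-34288073, minus strand: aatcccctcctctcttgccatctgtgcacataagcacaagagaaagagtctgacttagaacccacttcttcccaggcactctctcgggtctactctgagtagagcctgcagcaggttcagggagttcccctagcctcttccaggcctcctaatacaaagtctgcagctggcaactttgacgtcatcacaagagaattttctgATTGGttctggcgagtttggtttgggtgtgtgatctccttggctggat
Mki67 and Cdk1 each held 3 CCAAT matches and 2 CHR matches, Hmmr 5 CCAAT and 0 CHR matches, and H2-Aa 1 CCAAT and 0 CHR matches. H2-Aa was high largely in other barcodes than these genes. In the barcodes fitted to pLN_2, described below, 75.8% of its mean lay in 14 barcodes with 1 to 4 cell cycle genes. For Mki67 and Hmmr the share in those 14 was 0%. Promoters were listed for 66 of the 87 genes that were highest in pLN_2 of all 8 clusters, and 63.6% of them held CCAAT and 34.8% TTTGAA. Among the 164 genes higher than in pLN_1 that had a promoter listed, the shares were 62.2% and 22%, and among the 85 such lower genes 36.5% and 10.6%. Of the 2417 measured genes with a promoter listed 39.4% held CCAAT and 12.0% TTTGAA, and of all 27025 promoters 34.5% and 16.3%. The E2F core GCGGGAA, searched on both strands, was in 14% of promoters of the genes higher than in pLN_1, in 6.06% of those highest of 8, in 2.35% of the lower genes', 7.99% of the measured ones and 3.84% of all. A match describes the letters and is not a measured binding site.

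Against all 7 other columns at once, 87 of the 2715 genes with at least 0.5 per 10000 in pLN_2 (3.2%) were highest there, at least 2-fold over the next column. Thy_5 was the next column for 58 of them and pLN_1 for 18. Of the 87, 25 were in the cell cycle and histone lists, and 4 were MHC class II genes. The 10 genes furthest above the next column were H2-Aa, Hmmr, Cd74, Lyz2, H2-Eb1, Mki67, H2-Ab1, Tpx2, Prc1 and Cdk1. Lyz2, the lysozyme of macrophages and monocytes, averaged 2.23 per 10000 in pLN_2 and 0.274 in pLN_1, and it was listed at 0 in the other 6 columns.

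**Figure D2:**
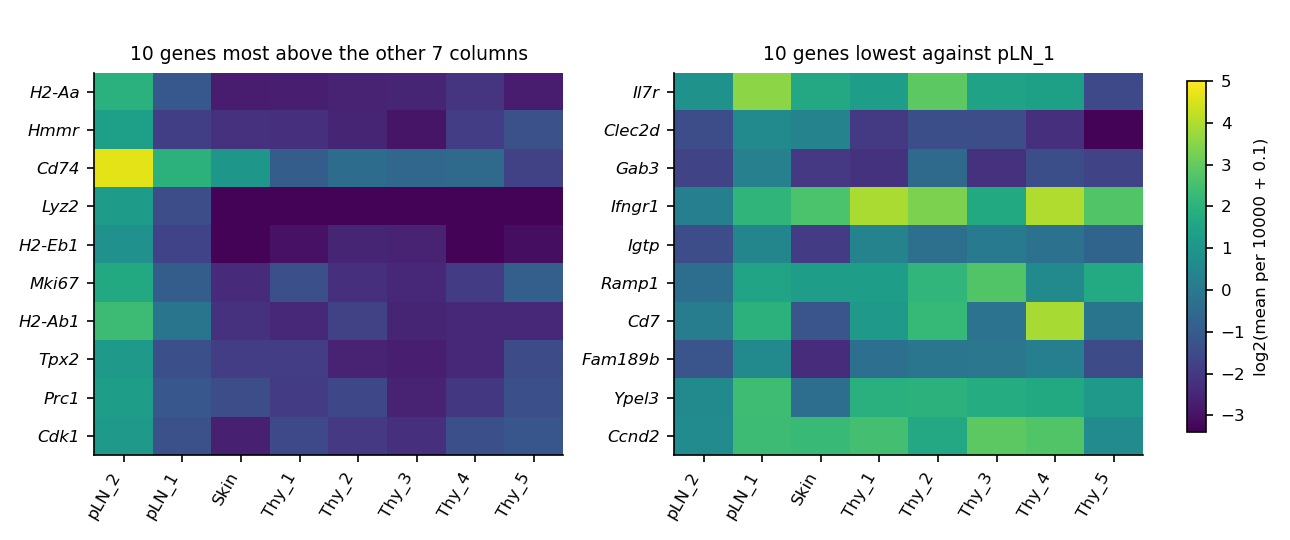
Authors' means on a log2 scale, as log2 of the mean per 10000 plus 0.1, in the 8 clusters (columns, pLN_2 at the left) for the 10 genes furthest above the other 7 columns and the 10 genes lowest against pLN_1 (rows). Cd74 reaches 24.9 per 10000 in pLN_2, and Il7r is at 1.79 in pLN_2 and 11.5 in pLN_1.

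MHC class II genes formed the other group of high genes. All 4 members measured against pLN_1 were higher, with a median log2 difference of 2.61: Cd74, H2-Aa, H2-Ab1 (the class II β chain) and H2-Eb1 (the β chain of the E molecule). H2-Ab1 averaged 5.01 per 10000 in pLN_2 and 0.810 in pLN_1, and H2-Eb1 1.70 in pLN_2 and 0.203 in pLN_1. H2-Aa and H2-Eb1 were measured only through pLN_2, and Cd74 and H2-Aa are the given markers, so the count of 4 is no independent support. The peptide-loading genes H2-DMa, H2-DMb1, H2-DMb2, H2-Oa and H2-Ob were listed between 0.146 and 0.486 per 10000 in pLN_2, under the level minimum. The summed level of the 9 listed genes was 36.8 per 10000 in pLN_2, against 5.73 in pLN_1, 2.18 in Skin and 1.01 to 1.97 in the thymus clusters.

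**Figure D3:**
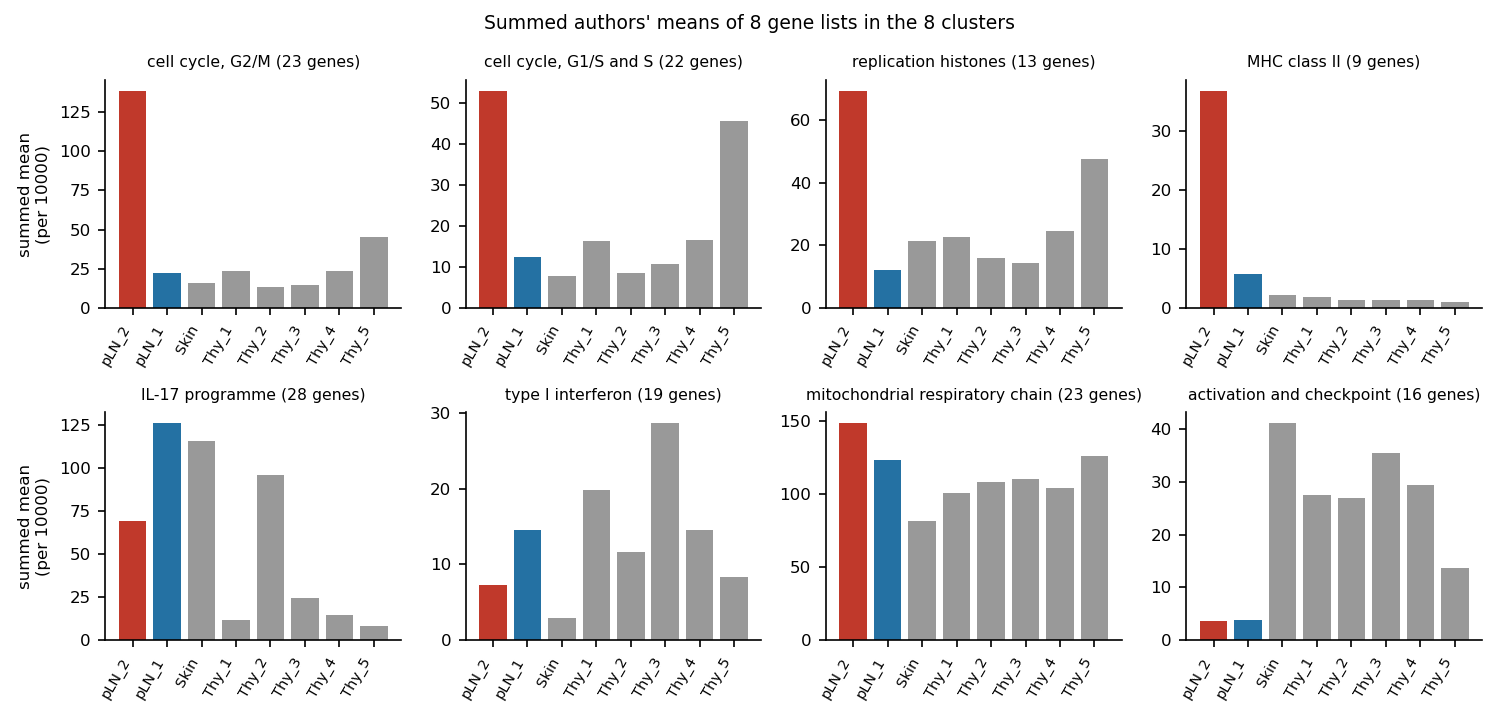
Summed authors' means per 10000 (bars, axes from 0) of 8 gene lists in the 8 clusters, pLN_2 in red, pLN_1 in blue and the other 6 in grey. G2/M genes sum to 138 in pLN_2 and 22.6 in pLN_1, MHC class II genes to 36.8 and 5.73, and IL-17 programme genes to 69.6 and 126.

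The cells carrying these transcripts differed in number between genes. In the authors' deposited table, Cd74 was detected in 71.1% of pLN_2 cells and in 34.4% of pLN_1 cells, H2-Ab1 in 36.5% and 10.6%, H2-Aa in 25.2% of pLN_2 cells and H2-Eb1 in 19.6%. Those shares of 301 cells make 214 cells with Cd74 and 76 with H2-Aa. In the same authors' deposited table, Lyz2 was detected in 2.7% of pLN_2 cells, which makes 8 cells averaging 82.4 per 10000. That average need not be the level of each cell, as the barcodes below show. Cd79a, the B cell receptor signalling chain, was detected in 3.3% by the authors' deposited table, which makes 10 cells at 16.4 per 10000. Mki67, by contrast, was detected in 58.8% of pLN_2 cells and 6.3% of pLN_1 cells in the authors' deposited table, and Rrm2 in 76.4% and 11.6%.

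Some markers of other cell types were higher in pLN_2 too. Of 14 B cell markers, 4 were in the table, and 3 were higher in pLN_2 than in pLN_1: Ly6d at 0.933 against 0.0346 per 10000, the transcription factor gene Ebf1 at 0.680 against 0.0372, and Cd79a at 0.540 against 0.0469. These 3 were measured only through pLN_2. Cd79b, the fourth, was at 1.03 in pLN_2 and 1.19 in pLN_1. Summed, the 4 were at 3.18 per 10000 in pLN_2 and 1.31 in pLN_1, and 0.037 to 8.02 in the other 6 columns, the highest being Thy_5 through Ly6d (7.79). Of 14 macrophage and monocyte markers, 7 were in the table, summing to 3.53 in pLN_2 and 0.631 in pLN_1, with Cd14 listed at 0 in both. Only 1 of them, Lyz2 (2.23 in pLN_2), reached the level minimum in either. The sum was higher in Thy_4, at 9.57, mostly through Fcer1g (6.70), and 0.201 to 0.667 in the remaining columns. Of 14 dendritic cell markers, 4 were in the table, summing to 6.43 in pLN_2 and 4.60 in pLN_1; nearly all of this was Cst3 (6.14 and 4.43), a protease inhibitor gene of many cell types, and Zbtb46 and Fscn1 were listed at 0 in both. Markers of the other types stayed low: mast cell, erythroid, keratinocyte, stromal and αβ T cell markers summed to at most 0.476 each in pLN_2. Plasma cell markers summed to 1.61 in pLN_2 and 1.90 in pLN_1, and those of natural killer and innate lymphoid cells, which include Il7r, to 2.35 in pLN_2 and 12.3 in pLN_1.

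To see how these transcripts were spread over cells, the 6840 barcodes of the 4 Vγ6 count matrices were weighted, each between 0 and 1 cell, so that their mean approached the authors' column. A weight of at least 0.5 for pLN_2 and below it for pLN_1 was reached by 272 barcodes, against 992 for pLN_1 by the same rule. The fit is approximate, because no set of barcodes gave the column exactly. Of 2715 genes, 99.6% came within 1.5-fold of the authors' pLN_2 mean, which is a description since the fit used those means. Of the 272 barcodes, 263 were from the lymph node matrix, 7 from thymus, 2 from skin and 0 from the pool. The lymph node matrix held 1461 barcodes, of which 2 to 12 were shared with each other library, and 1 of the 263 was among them.

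Nearly all barcodes fitted to pLN_2 were T cells by their markers. At least 3 γδ T17 markers and fewer than 3 markers each of B cells, macrophages and dendritic cells were present in 258 of the 272, 256 of them from lymph node and 2 from thymus. The other 14 split into 9 with at least 3 B cell markers, 3 with at least 3 macrophage or dendritic markers and 2 with fewer than 3 of each. These 14 held 1 to 4 cell cycle genes and 0 to 4 UMIs of the CD3 chains, and 0.490% to 11.6% of their UMIs were MHC class II. Of the 9 with B cell markers, 5 came from lymph node and 4 from thymus. Those with B cell, macrophage or dendritic markers together were 7 from lymph node, 4 from thymus and 1 from skin. The 2 with fewer than 3 of each came from thymus and skin. Of the 992 barcodes fitted to pLN_1, 18 lay outside the T marker class, 0 of them with B cell markers.

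Much of the class II mean of the fitted barcodes came from those 14, which the fit does not show to be cells of the submitters' cluster. They were not all from lymph node. Cd74 UMIs numbered 7 to 65 in the lymph node ones, 17 to 52 in those from thymus, and 130 and 61 in those from skin. They gave 64.2% of the fitted mean of Cd74 and 75.8% of that of H2-Aa, in which each barcode counts equally whatever its depth. Counted in UMIs, they held 33.45% of Cd74 and 46.1% of H2-Aa. The 258 T marker barcodes held 1303 of the 1958 Cd74 UMIs. The 14 also gave 95.3% of the fitted mean of Lyz2 and 98.7% of that of Ebf1. Of the 119 Lyz2 UMIs, 107 lay in 1 barcode. Lyz2 and Ebf1 are among the markers that set the classes, so their shares follow in part from that. For Top2a the share was 0.287% and for Mki67 none. In the 258 T marker barcodes alone Cd74 averaged 9.87 per 10000, against 4.92 in the 974 T marker barcodes fitted to pLN_1, a log2 difference of 0.99. H2-Aa averaged 1.05 in the pLN_2 barcodes and 0.563 in the pLN_1 barcodes (0.79), H2-Ab1 1.55 and 1.05 (0.52), and H2-Eb1 0.599 and 0.238 (1.05). The median log2 difference of these 4 was thus 0.89 without the 14. Of the B cell markers, Cd79b alone still reached the level minimum, at 0.688 in the pLN_2 barcodes and 1.30 in the pLN_1 barcodes (-0.83). Cd79a, Ebf1 and Ly6d were at most 0.0362 in the pLN_2 barcodes, a class that leaves out barcodes rich in B cell markers by its definition. The cell cycle lists differed by 2.34 (G2/M) and 1.78 (G1/S and S) in the same comparison.

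**Figure D4:**
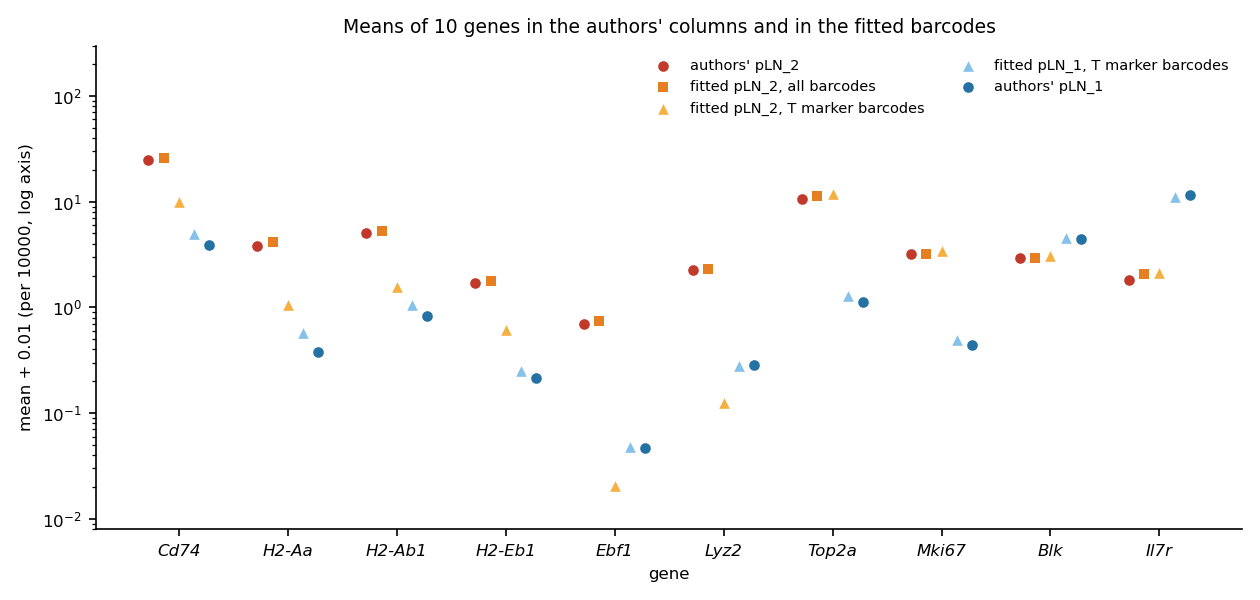
Mean level per 10000 with 0.01 added (log axis) of 10 genes in the authors' pLN_2 column, in the 272 barcodes fitted to it, in the 258 of these with T markers, in the 974 T marker barcodes fitted to pLN_1, and in the authors' pLN_1 column. Leaving out 14 barcodes brings Cd74 to 9.87 and Ebf1, itself a marker used to leave barcodes out, to 0.0103 in pLN_2, while Top2a is at 11.9.

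Among the T marker barcodes, class II transcripts were spread unevenly and went with depth. At least 10 MHC class II UMIs were counted in 59 of 258 pLN_2 barcodes, 22.9%, and in 6 of 974 pLN_1 barcodes, 0.616%. These 59 held a median of 6027 UMIs and 27 cell cycle genes, against 3872 UMIs and 23 genes in the rest of the 258. Thinned to 1000 UMIs each, the 258 averaged 1.32 class II UMIs per barcode, against 0.734 in 972 pLN_1 barcodes. Cd74 was then seen in 50% of pLN_2 barcodes (95% Clopper-Pearson interval 43.7 to 56.3%) and 34.3% of pLN_1 barcodes (31.3 to 37.3%). Unthinned, the shares were 79.8% and 47.6%, at median depths of 4276 and 1517 UMIs.

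UMIs of Cd79a and Lyz2 were counted beside those of Cd74 in each class. Both genes are among the markers that set the classes, so differences between the classes follow in part from that. Per 100 UMIs of Cd74, the 9 B marker barcodes held 5.22 UMIs of Cd79a, the 258 T marker barcodes 0.307 and the pLN_1 T marker barcodes 1.54. Of Lyz2, the 3 macrophage or dendritic marker barcodes held 61.1 UMIs per 100 of Cd74, the 258 T marker barcodes 0.921 and the pLN_1 T marker barcodes 6.17. All 107 Lyz2 UMIs of those 3 barcodes lay in 1 of them, and none of the 258 held more than 1. The ratios of the 258 barcodes rest on 4 Cd79a and 12 Lyz2 UMIs. The part of free RNA and of cell pairs in the Cd74 of these barcodes was not tested.

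**Figure D5:**
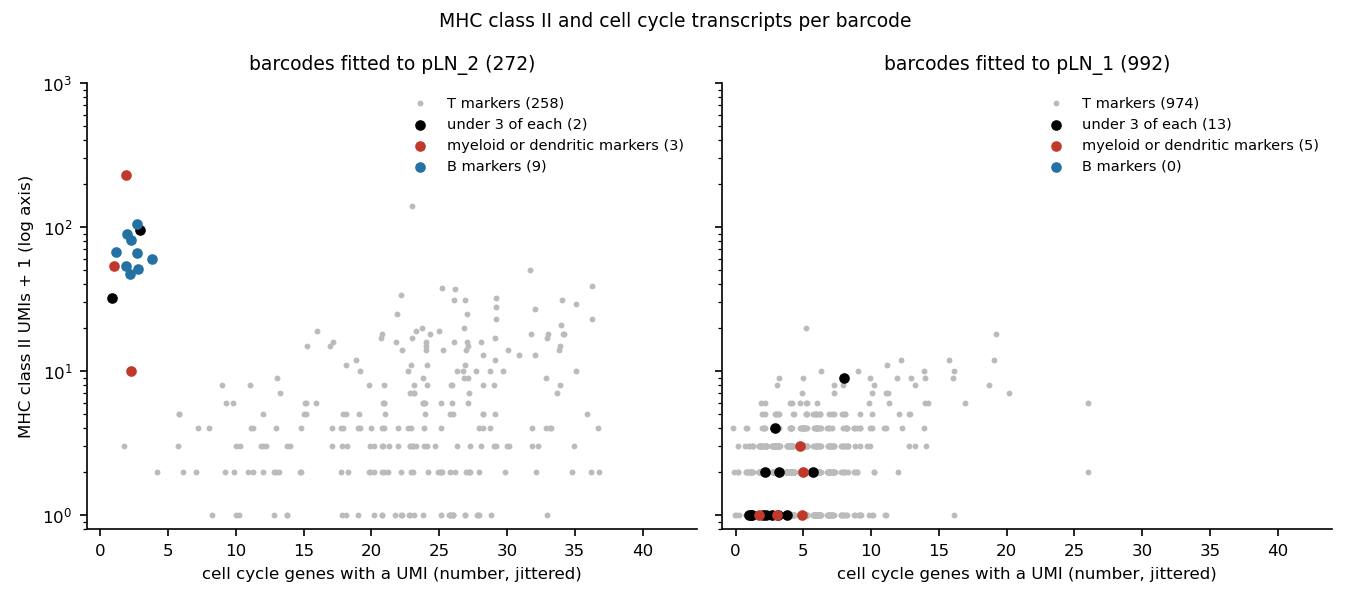
Number of cell cycle genes with a UMI (horizontal axis, points jittered) and MHC class II UMIs plus 1 (log axis) in each barcode fitted to pLN_2 (left) and to pLN_1 (right); colours give the marker class. The B cell, macrophage or dendritic and unclassed barcodes of pLN_2 hold 1 to 4 cell cycle genes, and its 258 T marker barcodes extend to 37.

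Barcodes fitted to pLN_2 were deep and most carried genes of both S and G2/M phase. Their median was 4153 UMIs and 1691.5 genes, against 1508 UMIs and 859 genes in pLN_1, and the median number of cell cycle genes with a UMI was 23 against 4. Of the 258 T marker barcodes, 229 had at least 3 S phase and at least 3 G2/M genes, 25 G2/M genes only, 3 S phase genes only and 1 neither. In pLN_1, 151 of 974 had both and 439 neither. After thinning to 1000 UMIs, 152 of 258 pLN_2 barcodes and 46 of 972 pLN_1 barcodes had both. The phase of single cells was not called.

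Il7r, Ifngr1 and Malat1 were among the genes lower in pLN_2 than in pLN_1. Il7r, the interleukin-7 receptor (chromosome 15, 9505788 to 9530176), averaged 1.79 per 10000 in pLN_2, against 11.5 in pLN_1, 3.08 in Skin, 7.22 in Thy_2, 2.33 to 2.60 in Thy_1, Thy_3 and Thy_4, and 0.239 in Thy_5. The log2 difference from pLN_1 was -2.62, and pLN_2 ranked seventh of 8. In the authors' deposited table it was detected in 38.9% of pLN_2 cells and 72.2% of pLN_1 cells, although the pLN_2 barcodes were deeper. Ifngr1, the interferon-γ receptor chain, averaged 1.07 in pLN_2, against 4.20 in pLN_1 and 3.19 to 15.9 in the other 6 columns, so pLN_2 was the lowest of 8. The nuclear RNA Malat1 averaged 155 in pLN_2, against 451 in pLN_1 and 393 to 556 elsewhere, and was lowest there too.

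Further genes with large negative differences were Clec2d (-2.02), the adaptor Gab3 (-1.92), Ramp1 (-1.84), a subunit of the receptor for calcitonin gene-related peptide, Cd7 (-1.84) and Ccnd2 (-1.70), the D-type cyclin of early G1. Ccnd2 averaged 1.47 per 10000 in pLN_2, against 5.00 in pLN_1 and 1.45 in Thy_5, the other column high in S phase genes. Tcf7, a transcription factor gene of naive and memory T cells, was at 0.226 in pLN_2 and 0.978 in pLN_1 (-1.73). By the rule of size 9 of 1502 genes (0.599%) were lowest in pLN_2 of all 8 columns, among them Ifngr1, Tcp11l2, Malat1, Pld3, Isg15, Txk, Mxd4 and Gpr132. Txk is a Tec family kinase of T cell receptor signalling, and Mxd4 is a MAX partner that opposes MYC.

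Counted per barcode, the lower genes differed less. All UMIs per barcode were 2.71-fold higher in the 258 pLN_2 T marker barcodes than in the 974 of pLN_1. Of the 113 lower genes, 41 had more UMIs per barcode in pLN_2 and 72 fewer, and the median ratio was 0.863. Of the 219 higher genes 216 had more (median ratio 11.9), and of all 3138 measured genes 3058 had more and 80 fewer (median ratio 2.61). UMIs per barcode below 0.5 of the pLN_1 value were found for 8 of the 113: Tgtp2, Tcp11l2, Cited4, Pydc3, Auts2, Gab3, Il7r and Pxdc1. Il7r held 0.814 UMIs per barcode in pLN_2 and 1.84 in pLN_1.

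Several interferon-inducible genes were lower. Of 8 type I interferon genes measured, 5 were lower in pLN_2 than in pLN_1 and 0 higher (median -1.06). Isg15, a ubiquitin-like modifier, averaged 0.217 per 10000 in pLN_2 and 0.867 in pLN_1. The interferon-γ-induced GTPases Igtp and Ifi47 were at 0.277 and 0.390 in pLN_2, against 1.28 and 1.47 in pLN_1. The immunoproteasome subunit Psmb10, at 1.25 in pLN_2 and 2.81 in pLN_1, was the 1 lower gene of 21 proteasome genes. MHC class I genes were 1 lower of 10 (median -0.48), with H2-K1 at 6.42 in pLN_2 and 10.7 in pLN_1.

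Genes of the IL-17 programme were detected at a lower summed level. Of 23 members measured, 7 were lower than in pLN_1, 0 higher and 16 neither (median -0.73), and the summed level was 69.6 per 10000 in pLN_2, against 126 in pLN_1. The lower members included Ccr6, a homing receptor (0.452 in pLN_2 and 1.20 in pLN_1), Il23r, the receptor for the cytokine that sustains IL-17 cells (0.904 and 2.08), Il18r1 (3.97 and 9.17), Tmem176a (3.08 and 7.17) and Tmem176b (3.15 and 6.95). The cytokine Il17a was at 0.0727 in pLN_2, 0.149 in pLN_1 and 6.81 in Skin. The summed programme remained above that of Thy_1, Thy_3, Thy_4 and Thy_5 (8.15 to 24.5) and below Thy_2 (96.2) and Skin (116). Against Thy_5, 18 of 20 measured members were higher in pLN_2 and 1 lower.

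Other lists differed little from pLN_1. Of 23 respiratory chain genes 0 were called either way (median 0.24), and their summed level was 148 per 10000 in pLN_2, against 123 in pLN_1 and 81.3 to 126 in the other 6. Of 10 T cell receptor complex genes 0 were higher and 9 were called neither way (median -0.57). Of 10 glycolysis genes and 12 chaperone genes 0 were called. Ccl5, a chemokine of cytotoxic cells, was the 1 higher of 3 cytotoxic and type 1 genes, at 1.63 in pLN_2 and 0.621 in pLN_1. Of 9 immediate early genes the 1 lower was Jun, at 0.519 in pLN_2 and 1.36 in pLN_1, and of 7 survival and cell death genes 0 were called. Plac8 was the 1 higher of 3 thymocyte maturation genes, at 0.943 in pLN_2 and 0.102 in pLN_1; in the authors' deposited table it was detected in 6.0% of pLN_2 cells.

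Against the other 6 columns the calls were more numerous. In pLN_2, 956 genes were higher (28.7%) and 624 lower (18.7%) than in Skin. Higher and lower calls were 501 and 486 against Thy_1 (15% and 14.5%), 415 and 384 against Thy_2 (13.0% and 12.0%), and 638 and 422 against Thy_3 (19.5% and 12.9%). They were 578 and 545 against Thy_4 (17.2% and 16.2%) and 493 and 435 against Thy_5 (14.8% and 13.1%). Activation and checkpoint genes were among the lower ones: 9 of 9 measured against Skin, 6 of 7 against Thy_1, 8 of 8 against Thy_2, 7 of 7 against Thy_3, 5 of 6 against Thy_4 and 5 of 7 against Thy_5, with a summed level of 3.69 per 10000 in pLN_2, near the 3.77 of pLN_1. Of 21 immediate early genes measured against Skin 20 were lower, and of 14 NF-κB targets 14 were lower. The genes of circulating and naive-type cells differed by column: against Skin 4 of 7 were higher and 2 lower, against Thy_1 0 of 11 higher and 9 lower, and against Thy_2 3 of 8 higher and 4 lower. In the same list 1 of 9 was higher and 5 lower against Thy_3, 1 of 11 higher and 8 lower against Thy_4, and 3 of 9 higher and 5 lower against Thy_5. The names of these columns point to other tissues, but the labels do not say which libraries each column holds. In a fit of the Skin column, weights of at least 0.9 fell on 509 barcodes of the skin Vγ6 library and 1 barcode of another. The differences may include those of tissue preparation.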

How the data were processed

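Per the labels, sorted cells were sequenced as droplet libraries. The authors' deposited table gives mean normalised expression per cluster, each column summing to 10000. Their second deposited table gives the fraction of cells with a gene, and their fold changes were not used. The deposited matrices hold raw UMI counts of 27998 genes. Cell Ranger 2.0, Seurat 2.3 and the build mm10 are named in the submitters' processing notes, without their roles. How clusters were made is not given in the sources used here.

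From these means log2 differences were taken with a pseudocount of 0.1 per 10000. Named genes were the 15 highest and 15 lowest against pLN_1 with at least 1 per 10000, the 10 most above and 5 most below the other 7 columns, both markers, every measured MHC class II gene, and in each other list the 4 measured members with the largest absolute log2 difference. Some genes under this rule are not reported here. Mitochondrial and ribosomal protein genes were left out of the ranking. Genes chosen after their values were seen are the list members outside this rule, the genes lowest of 8 and those with fewer UMIs per barcode. The cluster and the lists were chosen with earlier results of these data known.

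Barcodes were weighted by box-constrained least squares, tested on a cluster simulated by drawing lymph node barcodes at random. That setting held no barcodes of other libraries and no cluster of similar cells. It therefore does not check which single barcodes belong to pLN_2. In the fit itself, 233 of 6840 pLN_2 weights were at least 0.9 and 139 lay between 0.1 and 0.9, for a cluster taken as 301 cells. In the fit of the Skin column 0 weights lay between these bounds. Shares of cells with a gene served in the fit only for the cluster size. Those of the fitted barcodes differed from the authors' pLN_2 shares by up to 18.1 percentage points over 5118 genes, with a median difference of 1.63. The rule first set for naming cells, an exact match, was not met, so the fitted barcodes are an approximation chosen after seeing the data. For pLN_1 a size of 1007 cells was estimated from genes with 1 UMI. The lymph node matrix kept an estimated 90.0% of its UMIs in the authors' table. Doublets were not removed; scrublet in scanpy 1.11.5 called 2 of the 272 and 5 of the 992. Barcodes over 10% mitochondrial UMIs numbered 0 and 1. Intervals cover counting error only. Python 3.11.15, numpy 2.4.6, pandas 2.3.3 and scipy 1.17.1 were used. A gene's place comes from GENCODE M21.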

Additional observations from a re-analysis of the deposited data

How the results depend on the processing

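No paired analysis was possible because each cluster has 1 authors' mean and each group 1 library. With a pseudocount of 1 per 10000, genes higher and lower than in pLN_1 numbered 79 and 11, genes highest and lowest of 8 numbered 22 and 2, and the medians were 1.77 (MHC class II), 0.94 (G1/S and S) and 1.17 (G2/M). Without a level minimum 343 were higher and 236 lower, and the class II median was 1.92. With a minimum of 2 per 10000 the counts were 74, 29, 28 and 2. Of 113 named genes, 30 lost their call with the pseudocount of 1. By construction these settings change which low genes can pass. Rescaling without mitochondrial and ribosomal protein genes gave 242 higher and 167 lower, and median-of-ratios factors 228 and 95; with 0.1 added these left every named gene's direction.

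All settings on cells used the fitted barcodes. Over T marker barcodes only, 225 genes were higher and 122 lower. Thinning all fitted barcodes gave 191 lower genes, and the cause was not tested. The class II median was 1.76 as a share of summed UMIs, 2.01 without doublet calls and 0.89 with T marker barcodes only. Without any barcode holding Cd74 or H2-Aa, which removes the class II signal by its construction and leaves 46 barcodes, it was -0.54, the value of H2-Ab1, the 1 member left over the minimum; lower genes numbered 256, and H2-Ab1 and Ccl5 (-0.55) changed sign. Of the B cell markers Cd79b alone reached the level minimum there and in 2 other settings, at -0.39 there, -0.77 as a share of summed UMIs and -0.83 with T marker barcodes only, so these are not medians of 4. A weight limit of 0.25 gave 299 barcodes. Having 1 library per tissue, and few UMIs for low genes, limits all values.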

Other observations

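Barcodes with many cell cycle genes did not carry a higher share of MHC class II transcript in every library. Barcodes with 10 or more cell cycle genes, without those bearing other-cell markers, held 18.6 class II UMIs per 10000 in the lymph node library (95% Poisson interval 18.1 to 19.2), against 6.97 (6.59 to 7.37) in its barcodes with fewer. In the pool the values were 3.93 (3.36 to 4.58) and 2.06 (1.89 to 2.25), in thymus 1.62 (1.45 to 1.80) and 1.90 (1.78 to 2.04), and in skin 1.34 (0.537 to 2.75) and 3.22 (2.82 to 3.65). The skin value of 1.34 rests on 22 barcodes and 7 UMIs. Depth was not matched, and barcodes with 10 or more cell cycle genes were deeper in each library. Their median UMIs were 4366.5 against 1508 in lymph node, 3121 against 1254 in the pool, 4835 against 1994 in thymus and 2316.5 against 1038 in skin. The part of depth in these differences was not tested. The intervals cover counting error only.

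Of the 1461 lymph node barcodes, 220 were taken by the fit of neither lymph node column and 17 by both. The 220 were mixed. They held a median of 3270 UMIs and 12 cell cycle genes, between the barcodes fitted to pLN_2 (4153 and 23) and pLN_1 (1508 and 4), but reached 32006 UMIs and 42 cell cycle genes, beyond the 11707 and 37 of pLN_2. At least 30 cell cycle genes were found in 68 of the 220, against 39 of the 272 fitted to pLN_2, and at least 10 MHC class II UMIs in 57 and 72. Only 1 of the 220 had at least 3 B cell markers. Their cluster in the submitters' tables was not analysed here.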
